A study of Rattus norvegicus with 12 samples.

Results

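The genes that activate, inactivate and read thyroid hormone were measured in the colon of 12 male Wistar rats. The members are the probes named for the deiodinases Dio1, Dio2 and Dio3, the thyroid hormone receptors Thra and Thrb, and the thyroid hormone response genes Thrsp and Klf9. Each gene had 1 probe, printed as 2 spots, so that 7 of the 30367 probes of the array were members. The set was chosen by gene name with results of these arrays in view, and was selected on the lower Dio1 signal of Group M than of Group C. Dio1 is therefore described by its levels and differences with no p, and where a count of called genes below includes it, that count follows from the choice and supports nothing. Group C (rats C1 to C4) held animals kept with the dam and given placebo. Group M (M5 to M8) underwent neonatal maternal separation (NMS), 180 min a day in a cage apart from postnatal day 2 to day 14, and was given placebo. Group D (D9 to D12) underwent the same NMS and was gavaged with VSL#3, a mixture of probiotic bacteria, from day 3 to day 60. The colon was taken at day 60, all 12 rats had undergone colorectal distension, and the RNA of each rat was hybridized to its own array. The dose of VSL#3 differs between the labels and the methods of the study. The methods keep 11 of the arrays and give no reason for leaving out rat D12, so its value is given apart from the mean of Group D.

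Thyroid hormone leaves the thyroid mainly as thyroxine, a prohormone. Type 1 and type 2 deiodinases remove an iodine of the outer ring and yield the active hormone, triiodothyronine, while the type 3 enzyme removes an iodine of the inner ring and inactivates both. All are selenoproteins. Inside the nucleus, the hormone binds the receptors of the Thra and Thrb genes, which sit on DNA with a retinoid X receptor and repress or activate their targets according to whether hormone is bound. In the gut, thyroid hormone is known for its part in the maturation of the epithelium and in the proliferation of crypt cells, which depends on the alpha receptor.

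The probes of related members are shown because the paralogs must be told apart by these letters alone. Capitals mark the bases that are identical when both probes of a pair are laid side by side without gaps at the offset with the most matches. The deiodinase probes share 25 of 42 overlapping bases, with 9 as the longest common run.
Dio1: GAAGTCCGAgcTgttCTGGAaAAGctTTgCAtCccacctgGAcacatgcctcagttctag
Dio2: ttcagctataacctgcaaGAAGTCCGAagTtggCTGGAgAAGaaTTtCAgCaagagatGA
The receptor probes share 25 of 38 overlapping bases, with a longest common run of 5.
Thra: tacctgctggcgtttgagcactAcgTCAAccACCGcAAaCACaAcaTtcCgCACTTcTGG
Thrb: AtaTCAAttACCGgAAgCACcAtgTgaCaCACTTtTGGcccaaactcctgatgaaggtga
In the rn4 build that the files use, the Dio1 probe lies at chr5:128386555-128386614 and that of Dio2 at chr6:114308225-114308284, both on the minus strand. The Thra probe lies at chr10:87537328-87537387 on the plus strand and that of Thrb at chr15:9282955-9283014 on the minus strand. The files list 2 RefSeq transcripts of Thra for its probe, among them the one that encodes the hormone-binding alpha 1 receptor, so the signal is of Thra as a whole. The remaining probes lie at chr6_random:1589962-1590021 for Dio3, on a contig with no fixed place on chromosome 6, at chr1:154651216-154651275 for Thrsp and at chr1:226445625-226445684 for Klf9.

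A value below is a log2 signal relative to the 75th percentile of the same array. A value of 0 is thus a probe as bright as this percentile, and values of one probe are not set against those of another. The 75th percentile ranged from 1434 to 1950 over the 12 arrays, 75.5% to 77.5% of spots lay well above background and 0 were saturated. The number of rats, 3 or 4 a group, limits the precision, and for the dim Thrb and Dio3 probes so do their 2 spots, which differed by up to 2.76 and 1.21 log2 units on an array. Groups C and M shared a slide, each on its own row of arrays, and Group D was alone on another slide. Slide and treatment thus cannot be told apart in any comparison with Group D. Array row and separation likewise cannot be told apart in Group M vs Group C. All 11 colonocyte markers measured, such as Krt20, Slc26a3 and Car1, were well above background on each of the 11 arrays, as were the 7 smooth muscle markers. The groups were compared by limma over all probes on the 11 arrays, with Benjamini-Hochberg adjustment, and a probe was called where it changed by 2-fold or more with an adjusted p no higher than 0.05. Of the colonocyte markers 0 were called, but their levels were not equal between groups. Log2 differences ran from -1.62 (Car1) to 0.55 (Krt20) in Group M vs Group C, with a median of -0.34. In Group D vs Group M they ran from -0.25 (Epcam) to 2.1 (Aqp8), with a median of 0.45. The text of the labels does not say whether rats of a group shared a litter.

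Dio1, which makes active hormone and clears reverse triiodothyronine, was the member with the clearest separation of the groups, by the same arrays that led to its choice. Its log2 signal was -1.45, -1.94, -1.78 and -1.56 in C1 to C4, and -3.90, -2.75, -3.73 and -3.05 in M5 to M8. In D9 to D11 it was -2.43, -2.43 and -2.42. Every rat of Group C was thus above every rat of the other groups, and D9 to D11 lay between Groups C and M with almost no spread. Rat D12, at -3.60, fell inside the range of Group M and far from its own group. The group means were -1.68 ± 0.22 (SD, n = 4) in Group C, -3.36 ± 0.55 (SD, n = 4) in Group M and -2.43 ± 0.01 (SD, n = 3) in D9 to D11. The mean of Group M was lower than that of Group C by 1.68 log2 units (SE 0.24), a 3.2-fold difference. D9 to D11 lay 0.93 log2 units (SE 0.26) above Group M and 0.74 (SE 0.26) below Group C. As linear intensities before scaling, the signals spanned 474 to 654 in Group C, 121 to 249 in Group M and 294 to 320 in D9 to D11, and D12 had 161. Dio1 was well above background on all 12 arrays, and its 2 spots differed by at most 0.48 log2 units on an array.

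**Figure D1:**
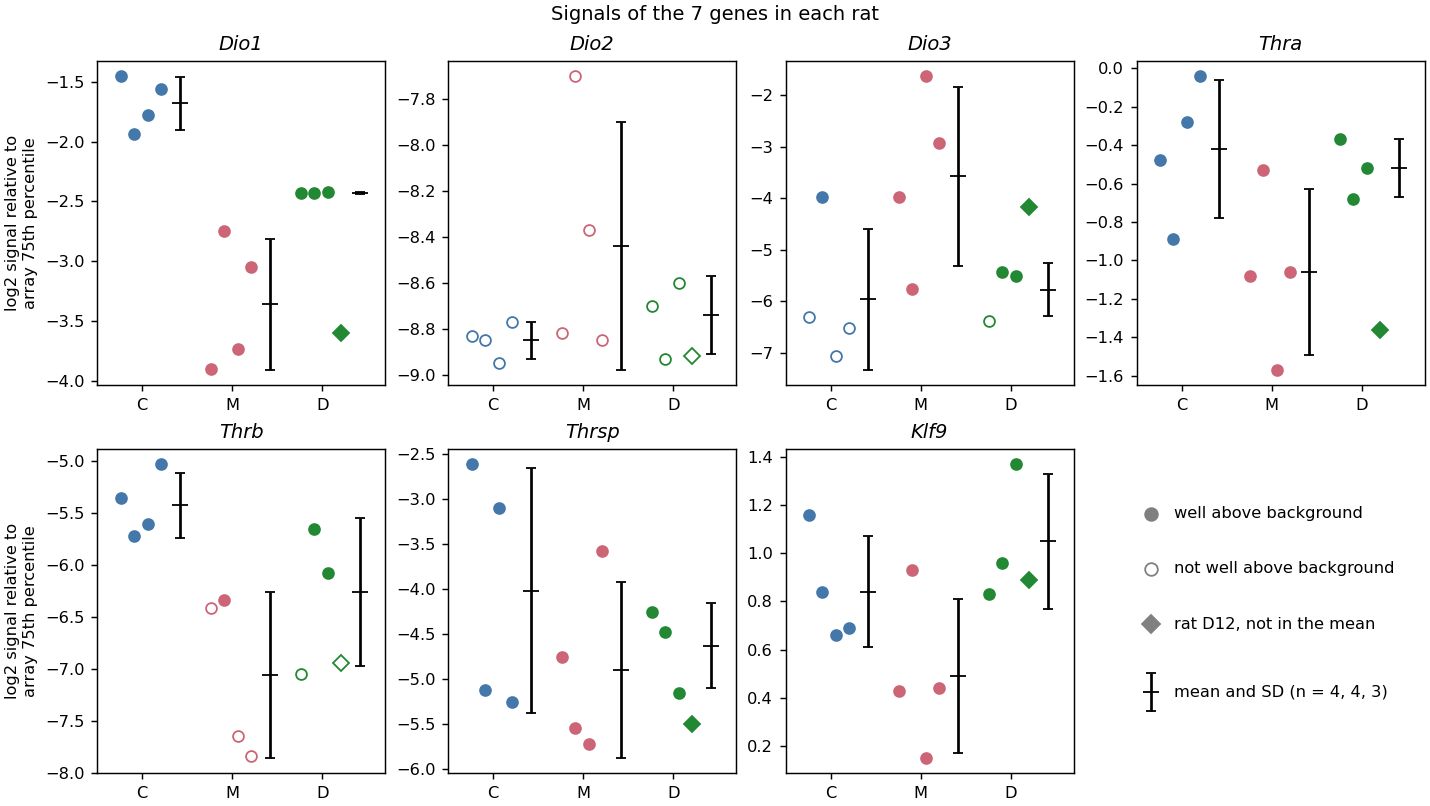
Log2 signal relative to the 75th percentile of the array (y axis) of the 7 genes in each rat of Groups C, M and D (x axis). Each point is a rat, open points were not well above background, the diamond is D12, and bars are the mean and SD of 4, 4 and 3 rats. The Dio1 values of Group C lie between -1.94 and -1.45 with no overlap, and those of Dio3 in Group M span from -5.75 to -1.63.

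Dio3, the inactivating enzyme, varied most between rats. It gave -6.30, -3.97, -7.06 and -6.51 in C1 to C4, where only C2 was well above background. In M5 to M8 the values were -3.97, -5.75, -1.63 and -2.94, all well above background. D9 to D11 had -6.37, -5.43 and -5.51, with D10 and D11 above background, and D12 had -4.18. C2 was as high as M5, and M6 was lower than D10 and D11, so that Groups C and M overlapped. The difference of Group M from Group C was 2.39 log2 units (SE 0.87, adjusted p = 0.152 by limma), and that of Group D from Group M was -2.20 (SE 0.94, adjusted p = 0.211 by limma), neither past the threshold. Rat M6 decided both results, since without it they were 3.11 (adjusted p = 0.0272 by limma) and -2.92 (adjusted p = 0.0414 by limma). Because only 1 rat of Group C was above background, the size of the first difference depends on signals that hardly rise over it. With a normexp background correction the differences were 1.19 (adjusted p = 0.15 by limma) and -1.23 (adjusted p = 0.174 by limma).

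Dio2, the activating enzyme of brain and brown fat, did not rise well above background in any rat. Its signals ran from -8.95 to -8.77 in Group C, from -8.85 to -7.70 in Group M and from -8.93 to -8.60 in D9 to D11, and D12 had -8.92. No fold is given for it. Of the deiodinases, Dio1 was thus the one detected in every rat, Dio3 was detected in 8 of the 12, and Dio2 in 0.

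Thra, whose alpha 1 product is the main hormone-binding receptor of the intestine, was well above background on all 12 arrays. Its signals were -0.48, -0.89, -0.28 and -0.04 in Group C and -1.08, -0.53, -1.57 and -1.06 in Group M. D9 to D11 had -0.37, -0.68 and -0.52, while D12 had -1.36. The rats M5, M7 and M8 were below all of Group C and D9 to D11, but M6 was not, and Groups C and M overlapped because M6 was above C2. The Group M vs Group C difference of -0.63 (SE 0.23, adjusted p = 0.151 by limma) and the Group D vs Group M difference of 0.54 (SE 0.25, adjusted p = 0.242 by limma) did not pass.

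Thrb, the receptor that mediates most hormone effects in the liver and the feedback on the pituitary, was dim. It measured -5.36, -5.72, -5.61 and -5.03 in Group C, well above background in all 4 rats. In M5 to M8 it measured -6.42, -6.34, -7.65 and -7.84, and M6 was the only rat of the 4 above background. D9 to D11 gave -7.05, -5.66 and -6.08, the last 2 of them above background, and D12 gave -6.94. Every rat of Group C was above every rat of Group M, while Group D overlapped both. The Group M vs Group C difference was -1.63 (SE 0.40, adjusted p = 0.0996 by limma), short of the threshold, although it passed the criterion of the methods of the study, which asks for a 2-fold change and an unadjusted p of at most 0.05 by analysis of variance across groups and by Tukey's test. Without M6 it was -1.88 (adjusted p = 0.0196 by limma), whereas a normexp background correction brought it to -0.42 (adjusted p = 0.088 by limma), less than 2-fold. The widest gap between the 2 spots of the Thrb probe was in M7, where the signal was not above background. Group D was 0.80 above Group M (SE 0.44, adjusted p = 0.314 by limma) and 0.83 below Group C (SE 0.44, adjusted p = 0.878 by limma).

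Thrsp encodes Spot 14, a nuclear protein of lipogenic tissue whose transcription thyroid hormone induces in the liver. Its signals were -2.61, -5.12, -3.10 and -5.26 in Group C, -4.75, -5.54, -5.72 and -3.58 in Group M and -4.25, -4.48 and -5.15 in D9 to D11. D12 had -5.50. Group C alone spread from -5.26 to -2.61, with M6, M7 and D12 below this range and the other 5 rats of Groups M and D inside it, and all arrays were well above background. No comparison of Thrsp passed, with -0.87 (SE 0.67, adjusted p = 0.473 by limma) for Group M vs Group C and 0.27 (SE 0.72, adjusted p = 0.866 by limma) for Group D vs Group M.

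Klf9 encodes a zinc finger transcription factor induced directly by thyroid hormone and also by glucocorticoids. It was bright in every rat, with 1.16, 0.84, 0.66 and 0.69 in C1 to C4 and 0.43, 0.93, 0.15 and 0.44 in M5 to M8. In D9 to D11 it was 0.83, 0.96 and 1.37, and in D12 0.89. M5, M7 and M8 were the lowest of the 12 rats, whereas M6 lay among Groups C and D. The Group M vs Group C difference was -0.35 (SE 0.19, adjusted p = 0.298 by limma) and the Group D vs Group M difference was 0.57 (SE 0.20, adjusted p = 0.157 by limma).

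**Figure D2:**
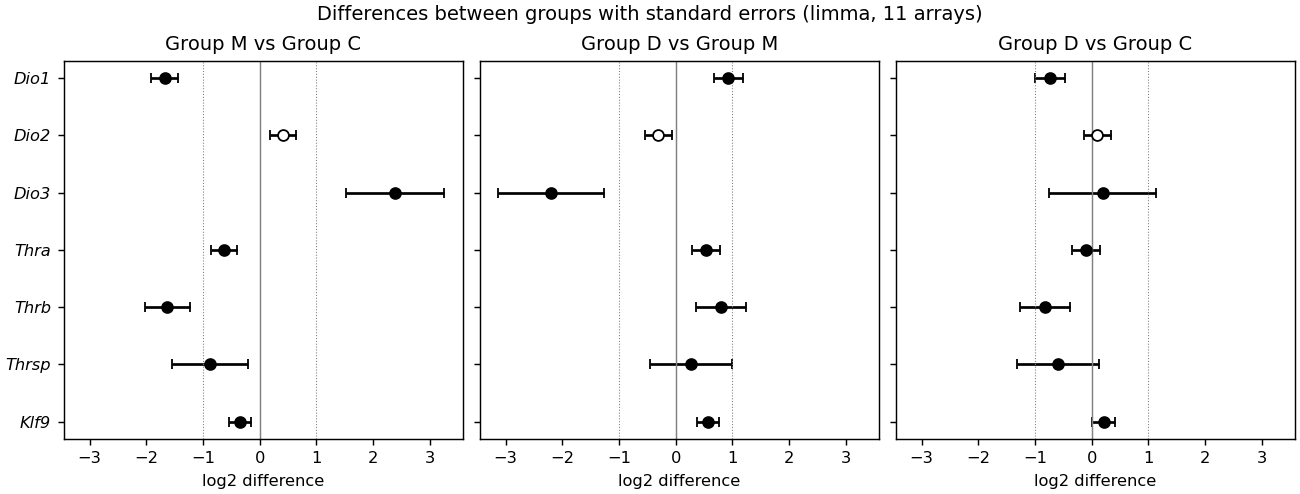
Log2 differences (x axis) of the 7 genes (y axis) in each comparison, from limma on 11 arrays, with bars of 1 SE and dotted lines at a 2-fold change. Dio2 is drawn open because it was not above background on any array, Dio1 has the largest lower difference in Group M vs Group C (-1.68) and Dio3 the widest bars (SE 0.87).

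Of the 7 members, 1 was called in Group M vs Group C, namely Dio1, where 0.168% of all probes were called. As this contrast led to its choice, nothing is read from the count. The call was kept without C2 and without M6, lost without each of the other 9 rats in turn, and lost with D12 included. Since the call follows from the choice, that it was kept in some settings supports nothing either. In Group D vs Group M 0 of 7 members were called by limma (0.125% of all probes), with 3 at an unadjusted p under 0.05 (21.6% of all probes) and 0 by the criterion of the methods (2.65%). Group D vs Group C also gave 0 of 7 by limma (0.00659% of all probes), 1 at an unadjusted p under 0.05 (5.98%) and 0 by the criterion of the methods (0.366%). At an unadjusted p under 0.05, 4 of 7 members (Dio1, Dio3, Thra and Thrb) differed in Group M vs Group C, where 22.7% of all probes did. The criterion of the methods took Dio1 and Thrb there, 2 of 7, beside 2.33% of all probes. Groups M and C did not overlap for the same pair of genes, beside 9.25% of all probes. Dio1 was also the 1 member without overlap in Group D vs Group M (16.0% of all probes) and in Group D vs Group C (7.60% of all probes), rat D12 left out. Without M6, limma called 3 members (Dio1, Dio3 and Thrb) in Group M vs Group C. For Group D vs Group M it then called 2 (Dio1 and Dio3), and the probes called in all rose from 51 to 1778 (5.86% of all probes) and from 38 to 1978 (6.51%). In Group D vs Group C, the 6 members other than Dio1 had adjusted p values from 0.878 to 0.999 by limma.

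The rats with high Dio3 and low Thra signals were those with high signals of lymphocyte genes. Of the 8 T and B cell markers listed, such as Cd3e, Cd79b and Ms4a1, 7 had a probe, of which 6 were well above background on each of the 11 arrays and Ms4a1 on 6 of them. Their summed signal, in multiples of the 75th percentile of the array, ranged from 0.695 to 8.11 in Group C, from 0.717 to 10.6 in Group M and from 0.567 to 1.34 in D9 to D11, and was 18.9 in D12. C2, M5, M7, M8 and D12 had 6.31 or more and the other 7 rats 1.34 or less. The former 5 rats held the 5 highest Dio3 and the 5 lowest Thra signals. Summed myeloid markers, all 7 of them measured on each of the 11 arrays, were 8.43 to 11.8 in these rats and 3.70 to 5.45 in the others. This list includes Ptprc, which lymphocytes also express, so its sum is not separate from that of the T and B cells. Its genes differed unevenly in Group M vs Group C, from -0.16 (Itgam) to 2.1 (S100a8), with a median of 0.44. None of the T and B cell or myeloid markers was called by limma in any comparison. The part of these cells in the Dio3 and Thra values was not tested. In tissue RNA, a change in the number of cells of one type and a change of RNA per cell cannot be told apart.

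The Dio1 values of the same rats are given beside these sums as a description. Of the 7 rats with T and B cell sums of 1.34 or less, C1, C3 and C4 had -1.78 to -1.45, D9 to D11 -2.43 to -2.42 and M6 -2.75. Of the rats with sums of 6.31 to 18.9, C2 had -1.94, M5, M7 and M8 had -3.90 to -3.05, and D12, with the highest sum, had -3.60 and lay inside the range of Group M. The part of these cells in the Dio1 values was not tested.

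Thrsp followed adipocyte genes instead. The summed adipocyte markers (8 measured, 5 of them well above background on each of the 11 arrays, Plin and Lep on 0) were 6.56 in C1, 4.47 in M8 and 3.74 in C3, against 1.74 to 2.49 in the other rats. C1, C3 and M8 were also the rats with the 3 highest Thrsp signals, from -3.58 to -2.61. The part of fat tissue in the Thrsp signal was not tested.

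**Figure D3:**
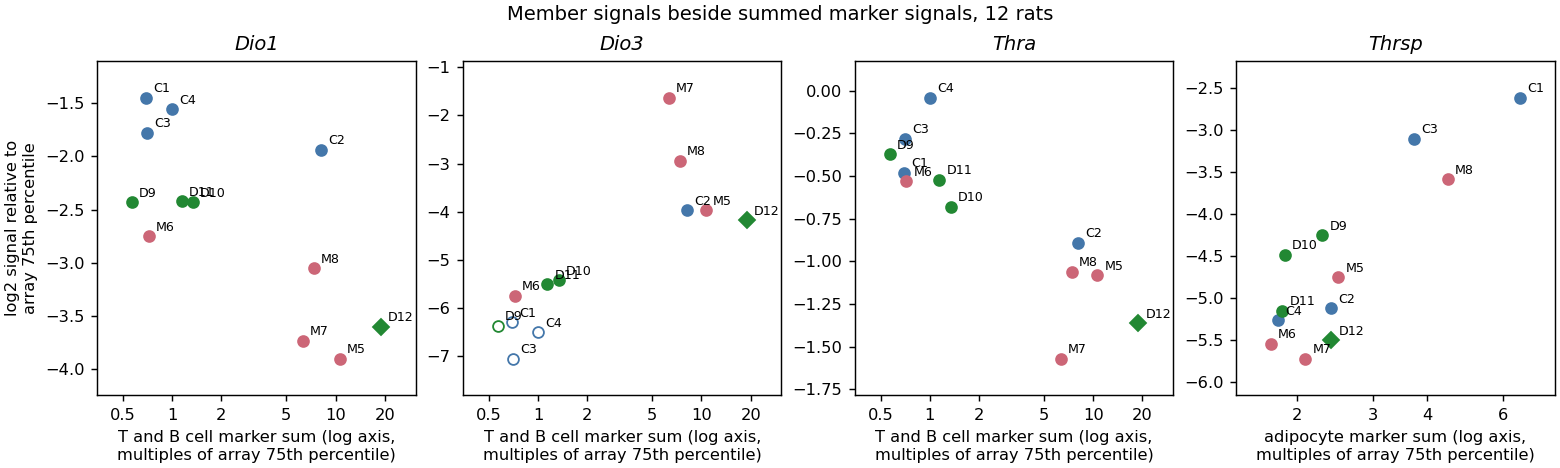
Log2 signal of Dio1, Dio3, Thra and Thrsp (y axis, relative to the 75th percentile of the array) against the summed T and B cell or adipocyte marker signal (x axis, log scale) in the 12 rats. Colours give Groups C (blue), M (red) and D (green), open points were not well above background, and the diamond is D12. The 5 rats with T and B cell sums of 6.31 or more have the 5 highest Dio3 signals.

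The genes most like each member over the 12 arrays were ranked among the 12237 probes that carry a gene name and were well above background on every array. These correlations span the 3 groups and are a description. Among the genes most like it, Dio1 went with Aldh1a1 (Pearson r = 0.977), which encodes an enzyme of retinoic acid synthesis, followed by Plag1 (r = 0.968), a zinc finger transcription factor, Abat (r = 0.951), which breaks down the transmitter GABA, and Kif16b (r = 0.926), a kinesin motor. The Group M vs Group C differences of these 4 genes were -1.72 (SE 0.25), -0.87 (SE 0.14), -1.0 (SE 0.15) and -0.61 (SE 0.12). Thra was most like Hint2 (r = 0.983), Arsa (r = 0.978), which encodes the lysosomal arylsulfatase A, and Fbxw5 (r = 0.971). Thrsp was most like Fabp4 (r = 0.967), the fatty acid binding protein of adipocytes, then Mrps21l (r = 0.839) and Cfd (r = 0.832), which encodes adipsin. Klf9 was most like Ilkap (r = 0.957), Osbpl1a (r = 0.928) and Rims1 (r = 0.923). The 3 members that were not above background on every array were not ranked.

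Genes that bring the hormone into cells or bind it held no call by limma. Of 14 transport and binding genes, all measured and 5 of them above background on no array, 5 were higher and 2 lower in Group M than in Group C at an unadjusted p under 0.05, and 0 higher and 2 lower in Group D than in Group M. Over all probes 9.86% were higher and 12.9% lower at this level in Group M vs Group C, and 11.8% and 9.85% in Group D vs Group M. The list's median difference was 0.05 and 0.02, against -0.01 and 0.02 over all probes. Slc7a5, the light chain of an amino acid exchanger that also carries iodothyronines, had -5.85 ± 0.63 (SD, n = 4) in Group C, -4.23 ± 0.76 (SD, n = 4) in Group M and -5.88 ± 0.30 (SD, n = 3) in D9 to D11. D12 had -4.18, close to the mean of Group M. With D12 left out, Slc7a5 passed the criterion of the methods in both comparisons with Group M. Its differences were 1.62 (SE 0.40, adjusted p = 0.0996 by limma) and -1.65 (SE 0.43, adjusted p = 0.0985 by limma). Crym, a cytosolic protein that binds triiodothyronine, differed by 1.28 (SE 0.46, adjusted p = 0.151 by limma) and -1.12 (SE 0.50, adjusted p = 0.231 by limma). Its signal in D12 was 0.07, beside means of -0.01 in Group M and -1.13 in D9 to D11. Slc16a10, the aromatic amino acid transporter MCT10, was 0.04 (SE 0.13) and -0.37 (SE 0.14), with adjusted p of 0.897 and 0.170 by limma.

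All 16 receptor partners and cofactors were well above background on each of the 11 arrays, and 0 were called. At an unadjusted p under 0.05, 1 was higher and 5 were lower in Group M vs Group C (9.86% and 12.9% of all probes), with a median of -0.17. In Group D vs Group M 4 were higher and 0 lower (11.8% and 9.85% of all probes), with a median of 0.19. Ncoa1, a coactivator, had -0.57 (SE 0.17, adjusted p = 0.12 by limma) and then 0.57 (SE 0.19, adjusted p = 0.136 by limma). Its signal in D12 was 0.99, beside means of 0.85 in Group M and 1.43 in D9 to D11. The partner receptor Rxra had -0.22 (SE 0.12) and 0.23 (SE 0.13), the corepressor Ncor1 -0.32 (SE 0.18) and 0.26 (SE 0.20), and the mediator subunit Med1 -0.09 (SE 0.08) and 0.07 (SE 0.08), with adjusted p from 0.323 to 0.679 by limma. Chosen after its values were seen, Rxrg, another retinoid X receptor, had -2.91 ± 0.09 (SD, n = 4) in Group C, -3.73 ± 0.27 (SD, n = 4) in Group M and -3.11 ± 0.21 (SD, n = 3) in D9 to D11. D12 had -3.81, below the mean of Group M. The differences of Rxrg, rat D12 left out, were -0.82 (SE 0.15, adjusted p = 0.0723 by limma) and 0.62 (SE 0.16, adjusted p = 0.0939 by limma). The groups did not overlap in either (9.25% and 16.0% of all probes), but with D12 Groups D and M overlapped.

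Of the 11 genes for the synthesis and turnover of deiodinases, 8 had a probe, all of them above background on each of the 11 arrays, and 0 were called. These include Secisbp2 and Sephs2, which serve the insertion of selenocysteine, Wsb1, a ubiquitin ligase adaptor that marks the type 2 enzyme for degradation, and Usp33, which takes that mark off. Their Group M vs Group C differences were -0.09 (SE 0.12), 0.01 (SE 0.09), 0.15 (SE 0.11) and -0.25 (SE 0.13), and those of Group D vs Group M 0.00 (SE 0.13), -0.01 (SE 0.09), -0.09 (SE 0.12) and 0.16 (SE 0.14). The list's median was -0.11 and 0.05.

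Among the 9 conjugation genes measured of 11, 0 were called. At an unadjusted p under 0.05, 4 were lower in Group M than in Group C (12.9% of all probes). At that level 4 were higher in Group D than in Group M (11.8% of all probes). The medians were -0.10 and 0.38. Sult1a1, a phenol sulfotransferase that accepts iodothyronines, had 0.70 ± 0.51 (SD, n = 4) in Group C, -0.80 ± 0.81 (SD, n = 4) in Group M, 1.24 ± 0.48 (SD, n = 3) in Group D and -0.06 in D12. Its differences were -1.50 (SE 0.40, adjusted p = 0.107 by limma) and 2.04 (SE 0.44, adjusted p = 0.0809 by limma), and both passed the criterion of the methods. Sult1c2, chosen after its values were seen, also passed it in both, with -1.77 (SE 0.54, adjusted p = 0.12 by limma) and 1.88 (SE 0.59, adjusted p = 0.126 by limma). Its signal in D12 was -3.34, beside means of -3.87 in Group M and -2.00 in D9 to D11. Sult1b1, the sulfotransferase with a bright signal in every rat, was 0.13 (SE 0.18, adjusted p = 0.714 by limma) and -0.27 (SE 0.19, adjusted p = 0.45 by limma).

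Among the classical response genes, 23 measured of 24 listed, 0 were called. At an unadjusted p under 0.05, 3 were higher and 2 lower in Group M vs Group C (9.86% and 12.9% of all probes). In Group D vs Group M 3 were higher and 2 lower (11.8% and 9.85% of all probes). The medians were -0.02 and 0.01. Hr, a corepressor induced by the hormone, had 0.23 (SE 0.15, adjusted p = 0.404 by limma) and 0.01 (SE 0.17, adjusted p = 0.964 by limma). Me1, the malic enzyme that supplies NADPH for lipogenesis, had -0.02 (SE 0.10, adjusted p = 0.953 by limma) and -0.22 (SE 0.11, adjusted p = 0.282 by limma). Fasn, the fatty acid synthase, had -0.30 (SE 0.21, adjusted p = 0.439 by limma) and 0.45 (SE 0.23, adjusted p = 0.278 by limma). Of the 11 lipogenic genes beside Thrsp, 10 had a probe and 0 were called, with medians of 0.00 and -0.04.

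Genes of the gut epithelium that respond to the hormone (12 measured, 0 called) had medians of 0.06 and 0.14. Alpi, the intestinal alkaline phosphatase, was 0.18 (SE 0.11, adjusted p = 0.363 by limma) and -0.16 (SE 0.12, adjusted p = 0.463 by limma). Sfrp2, a secreted Wnt modulator and target of the alpha receptor in crypts, was -0.91 (SE 0.41, adjusted p = 0.219 by limma) and 1.1 (SE 0.44, adjusted p = 0.188 by limma). Its signal in D12 was -2.82, beside means of -2.37 in Group M and -1.27 in D9 to D11. Ctnnb1, which encodes beta-catenin, was 0.53 (SE 0.21, adjusted p = 0.182 by limma) and -0.45 (SE 0.23, adjusted p = 0.288 by limma). Of the 11 genes typical of the thyroid follicle 0 were called. At an unadjusted p under 0.05, 3 were lower in Group M vs Group C (12.9% of all probes) and 3 higher in Group D vs Group M (11.8%). Duoxa2, the maturation factor of the dual oxidase Duox2, which the gut epithelium also expresses, was chosen after its values were seen. It had -2.99 ± 0.15 (SD, n = 4) in Group C, -3.93 ± 0.14 (SD, n = 4) in Group M and -2.89 ± 0.55 (SD, n = 3) in D9 to D11, and -2.38 in D12. The differences were -0.94 (SE 0.20, adjusted p = 0.0904 by limma) and 1.04 (SE 0.22, adjusted p = 0.0763 by limma). The groups did not overlap in either (9.25% and 16.0% of all probes).

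**Figure D4:**
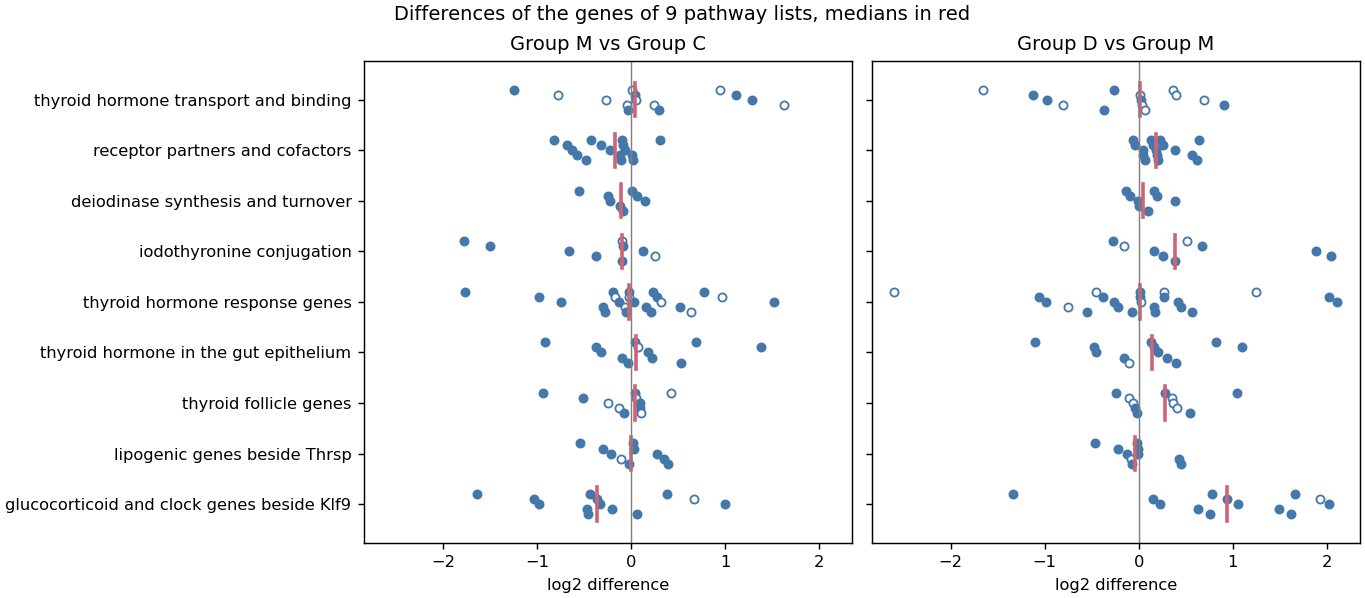
Log2 differences (x axis) of the measured genes of 9 lists (y axis) in Group M vs Group C (left) and Group D vs Group M (right), 1 probe a gene, from limma on 11 arrays. Open points were not well above background on each of the 11 arrays, and red bars are medians, which run from -0.36 to 0.06 on the left and from -0.04 to 0.94 on the right.

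Klf9 is also induced by glucocorticoids and follows the circadian clock, and the 13 genes of those systems had the largest list medians, -0.36 for Group M against Group C and 0.94 for Group D against Group M, with 0 called by limma. At an unadjusted p under 0.05, 7 were higher and 1 lower in Group D vs Group M (11.8% and 9.85% of all probes). By the criterion of the methods 4 were higher and 1 lower there, beside 2.65% of all probes in both directions together. Dbp, a clock output factor, had 2.72 ± 1.0 (SD, n = 4) in Group C, 1.74 ± 0.75 (SD, n = 4) in Group M and 3.76 ± 0.28 (SD, n = 3) in Group D, but 1.48 in D12. Its Group D vs Group M difference was 2.02 (SE 0.53, adjusted p = 0.0995 by limma). Tsc22d3, a glucocorticoid-induced leucine zipper protein, had 0.53 ± 0.28 (SD, n = 4) in Group C, 0.06 ± 0.60 (SD, n = 4) in Group M, 1.11 ± 0.05 (SD, n = 3) in Group D and 0.86 in D12. Its Group D vs Group M difference, without D12, was 1.05 (SE 0.29, adjusted p = 0.103 by limma). Fkbp5, a cochaperone of the glucocorticoid receptor, was -0.33 ± 0.44 (SD, n = 4) in Group C, 0.67 ± 0.25 (SD, n = 4) in Group M, 1.61 ± 0.30 (SD, n = 3) in Group D and 2.18 in D12, so that both NMS groups were above Group C in every rat. Its Group D vs Group C difference was 1.94 (SE 0.25, adjusted p = 0.106 by limma) and became a call with D12 included. Per1 was -0.20 (SE 0.17, adjusted p = 0.533 by limma) and 0.15 (SE 0.19, adjusted p = 0.68 by limma). The hours at which the rats were killed are not given in the sources used here, and the part of the time of day in these values was not tested.

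Leaving out rat M6 changed the result that no list gene was called. So did including D12, given above for Fkbp5, and some of the processing settings given in the last section. Without M6, limma called 5.86% of all probes for Group M against Group C and 6.51% for Group D against Group M. Of the list genes it called 3 transport and binding genes higher (Slc7a5, Slco4a1 and Crym) and 1 lower (Slco2b1) in Group M than in Group C, 2 conjugation genes lower (Sult1a1 and Sult1c2), and 4 others, Bcl3 and Myc higher and Pck1 and Klf15 lower. For Group D vs Group M it called 3 transport and binding genes lower (Slc7a5, Slco4a1 and Crym), 1 conjugation gene higher (Sult1a1) and 6 glucocorticoid and clock genes higher (Tsc22d3, Zbtb16, Per2, Dbp, Tef and Klf15), and besides these Pck1 higher and Ucp3 and Myc lower. Leaving out any other rat gave 0 calls in these lists.

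The promoter windows of the members (RefSeq, GRCr8, from 250 bases before to 50 after each start) were searched on both strands for AGGTCA, the core letters that thyroid hormone receptors bind. It was in 0 of the 8 windows of the 7 genes, Thra having 2 starts, and in 16.2% of all 33469 windows. The letters alone say nothing about binding elsewhere.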

How the data were processed

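One-colour Agilent arrays (Cy3), 1 per rat, measured colon RNA of Groups C, M and D (4 rats each). The deposited intensities, made by Agilent Feature Extraction 10.5.1.1, had their background subtracted and trends across the array corrected, and were not normalized between arrays. The authors' matrix holds log2 values of 30367 probes whose columns share almost 1 distribution, and each of its 12 columns was closest to its own array.

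From the intensities, log2 signals minus the log2 75th percentile of the array were computed, with control spots and outlier spots left out and the replicate spots averaged. The groups were compared with limma 3.58.1 (R 4.3.3, with version 1.17.8 of the package data.table) in one model of 11 arrays without D12, with Benjamini-Hochberg adjustment over all probes. The procedure was tested on simulated data. Figures used Python 3.11.15 and matplotlib 3.10.9. The symbols of 16570 probes matched a RefSeq symbol. The members, gene lists and tests were chosen with earlier results of these data known.

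Named genes are the 7 members, 25 list genes set by name (Srebf1 among them had no probe of that name), list genes called, and the 5 (Dio1) or 3 genes of highest Pearson r to a member. List genes are measured by the probe of highest mean signal. Others are marked as chosen after their values were seen. Some results are not reported here. The alternatives were all 12 arrays, normexp with an offset of 50, quantile normalization, the authors' matrix, a filter on dim probes, outlier spots kept, the replicate number as a block, only the compared groups, the criterion of the methods, and each rat left out.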

Additional observations from a re-analysis of the deposited data

Results flagged for a closer look

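Within a group of 4 rats, 4 of 90 sets of values held a rat that stood apart by Dixon's criterion, over 30 genes in 3 groups, and chance alone marks about 1 in 20 such sets. Dio1 in Group D was one of them, with D12 at -3.60 and the other rats between -2.43 and -2.42. Fasn in Group C had C4 at 0.51 and the others from 1.24 to 1.34. Ctnnb1 in Group M had M7 at 0.30 and the others from -0.73 to -0.59. Secisbp2 in Group M had M6 at 1.70 and the others from 1.47 to 1.5.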

How the results depend on the processing

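Of 357 differences of the members other than Dio1 recomputed under the alternatives, 349 kept their direction and side of the threshold, 4 came to pass it and 4 reversed, all of them near 0: Dio3 in Group D vs Group C to -0.04 with normexp and to -0.18 without C3 (0.85 at most with one rat left out), Thra there to 0.03 without C4 (-0.25 at the other end), and Thrsp in Group D vs Group M to -0.01 without M7 (0.71 at most). Thrb (-1.63) in Group M vs Group C passed under the criterion of the methods, and the other 3 that came to pass did so without M6. Dio1 kept its direction in all 60, with -1.88 to -1.37 in Group M vs Group C. Its call there, which follows from the choice and supports nothing, was lost in most settings of that comparison. The counts of called probes were less stable. Against 51, 38 and 2 probes in Group M vs Group C, Group D vs Group M and Group D vs Group C, all 12 arrays gave 10 and 4 in the first pair, normexp 88 in Group D vs Group M, quantile normalization 0 in Group D vs Group C, the authors' matrix 28 and, in Group D vs Group C, 4, the filter on dim probes 80 and 179, only the compared groups 23, 12 and 0, and the criterion of the methods 707, 805 and 111, with 2 members in Group M vs Group C. Members called there fell from 1 to 0 with all 12 arrays, the authors' matrix and only the compared groups. With each rat left out, the probes called ranged from 4 to 1778, from 1 to 1978 and from 0 to 12, and the members from 0 to 3, from 0 to 2 and from 0 to 0, the highest counts of the first 2 comparisons coming without M6. Of the list genes, normexp called Sult1a1, Per2 and Tef in Group D vs Group M and Fkbp5 in Group D vs Group C, and the filter on dim probes called Sult1a1, Duoxa2 and Per2 in Group D vs Group M. The cause was not tested.

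The rats of the groups carry the numbers 1 to 4. Deviations of same-numbered rats correlated at -0.56 to 0.13 over 10 pairs, so no shared deviation was seen. So few rats cannot show that the numbers carry no meaning. With the replicate block 1, 1 and 0 probes and 0 members were called in the 3 comparisons.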
